A study of Homo sapiens with 4 samples.

Results

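Small nucleolar RNA host genes were followed across 4 RNA sequencing libraries of the MDA-MB-231 cell line, an established line derived from human triple-negative breast cancer. They were chosen by symbol: every gene named SNHG with a number, together with GAS5, ZFAS1, DANCR, EPB41L4A-AS1, CCDC18-AS1 and MIR17HG. Earlier results of these data were known when the list was made. The rule found 31 of the 58735 genes in the count table. Of these, 22 reached a mean of at least 1 CPM (counts scaled to library size) over the 4 libraries, and 9 did not. The 22 were classed by the table as processed transcript (11), lincRNA (5), antisense (4), sense overlapping (1) and protein coding (1).

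All 4 populations carried a transduced histone H2B-eGFP reporter under doxycycline control and received the same treatment: doxycycline at 5 μg/ml for 3 days, labelling with a Claret and a Violet dye, then a chase of 12 days. Slow-cycling cells were sorted as the top 1% for one retained label, giving the Claret, eGFP and Violet libraries. Bulk cells passed through the sorter with no fluorescence gate, so they also include whatever slow-cycling cells were present. Each population gave 1 library, which leaves no replicate check for any difference below, and the 3 comparisons with Bulk share that 1 control library. The sample titles gave the groups. In every sample the treatment field names another sort: Claret for the library titled Bulk, eGFP for Claret, Violet for H2B-eGFP, and un-gated for Violet. Under that field many ratios turn: with the library titled Violet as the control, GAS5 in Claret stands at -1.45 on the log2 scale instead of 1.71. Values given in threes below follow the order Claret, eGFP, Violet. MKI67, a proliferation marker, had 6778 reads in the library titled Bulk against 995, 689 and 915, and TOP2A had 14220 against 3399, 2487 and 3330. The libraries held 15508179 to 16976909 reads. The mesenchymal markers VIM, CD44, AXL and CAV1 were present in every library (3742 reads or more), PGR was listed at 0, ESR1, CDH1 and PTPRC had at most 7 reads, and EPCAM and PECAM1 had 28 to 87 reads.

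A host gene carries one or more small nucleolar RNAs (snoRNAs) in its introns. Splicing of the host transcript releases the snoRNA, which joins core proteins and guides chemical modification of ribosomal RNA: box C/D snoRNAs direct ribose methylation and box H/ACA snoRNAs direct pseudouridylation. Many host transcripts begin with a 5′ terminal oligopyrimidine (TOP) tract, a C followed by further pyrimidines, as the messenger RNAs of ribosomal proteins do, and several of the spliced host RNAs are degraded by nonsense-mediated decay when they are translated. GAS5 was named for its accumulation in growth-arrested cells.

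The first 30 bases of transcripts of 9 host genes are shown, because these are the genes past 2-fold in any library, except the weakly read SNHG28, plus 2 hosts, SNHG12 and SNHG4, whose RefSeq starts begin with the longest pyrimidine tracts. Each is written 5′ to 3′ on the strand of the gene, with GRCh38 coordinates, from RefSeq (table build GRCh38.p14) or, where only a GENCODE 29 transcript begins with a tract, from that transcript. Capitals mark a TOP tract, defined as C followed by at least 4 pyrimidines, and its full length.
GAS5 (GENCODE, chr1:173867960-173867989, minus strand): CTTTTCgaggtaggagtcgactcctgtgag
SNHG8 (GENCODE, chr4:118278758-118278787, plus strand): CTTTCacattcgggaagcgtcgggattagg
SNHG5 (RefSeq, chr6:85678704-85678733, minus strand): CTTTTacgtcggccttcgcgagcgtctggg
ZFAS1 (RefSeq, chr20:49278642-49278671, plus strand): CTTTCgcgtctgcggtgcccggagtgtggt
SNHG12 (RefSeq, chr1:28581844-28581873, minus strand): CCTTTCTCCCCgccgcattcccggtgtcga
SNHG4 (RefSeq, chr5:139274101-139274130, plus strand): CCCTTTCCCCTCCggcctctgccggtgctg
CCDC18-AS1 (RefSeq, chr1:93345782-93345811, minus strand): ccgcccgttcgcgctgccagcagcttccgc
EPB41L4A-AS1 (RefSeq, chr5:112160526-112160555, plus strand): tgtcgggtcccaaaatacgtggtctaaagt
DANCR (RefSeq, chr4:52712394-52712423, plus strand): gcccttgcccagagtcttcccgggattggc

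Of the 22 host genes, 7 were more than 2-fold higher in Claret than in Bulk, as were 5 in eGFP and 5 in Violet, and 1 was more than 2-fold lower in each. Among all 14585 genes of at least 1 CPM, the shares past 2-fold higher were 11.3%, 12% and 11.7%, and the shares past 2-fold lower were 6.72%, 7.64% and 6.92%. The host genes' shares on the higher side, 31.8%, 22.7% and 22.7%, lay above those of all genes but close to those of the other 1256 long non-coding genes, 25.1%, 24.9% and 26.5%. Over the 17 genes with SNHG names alone, 3, 1 and 2 were past 2-fold higher (17.6%, 5.88% and 11.8%). In eGFP this share is below that of all genes, and in Violet it is level with it. The host genes CCDC18-AS1, EPB41L4A-AS1, GAS5 and SNHG8 were past 2-fold higher in all 3 slow-cycling libraries, 4 of 22 (18.2%) against 8.67% of all genes and 18.1% of the other long non-coding genes, and DANCR was past 2-fold lower in all 3, 1 of 22 against 4.93% of all genes. The median log2 ratios over the 22 were 0.27, 0.20 and 0.18, against -0.01, -0.01 and 0.01 over all genes and 0.38, 0.35 and 0.46 over the other long non-coding genes. Over the SNHG-named genes alone, the medians in eGFP and Violet were -0.059 and -0.091. Host genes lay on both sides of Bulk: 12 were above it in all 3 slow-cycling libraries (54.5%, against 42.6% of all genes and 56.7% of the other long non-coding genes), 9 were below it in all 3 (40.9%, against 42.8% and 20.7%), and SNHG15 was above it in Claret and below it in the others. In sorted populations such as these, more RNA per cell and more cells with a high level cannot be told apart.

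**Figure D1:**
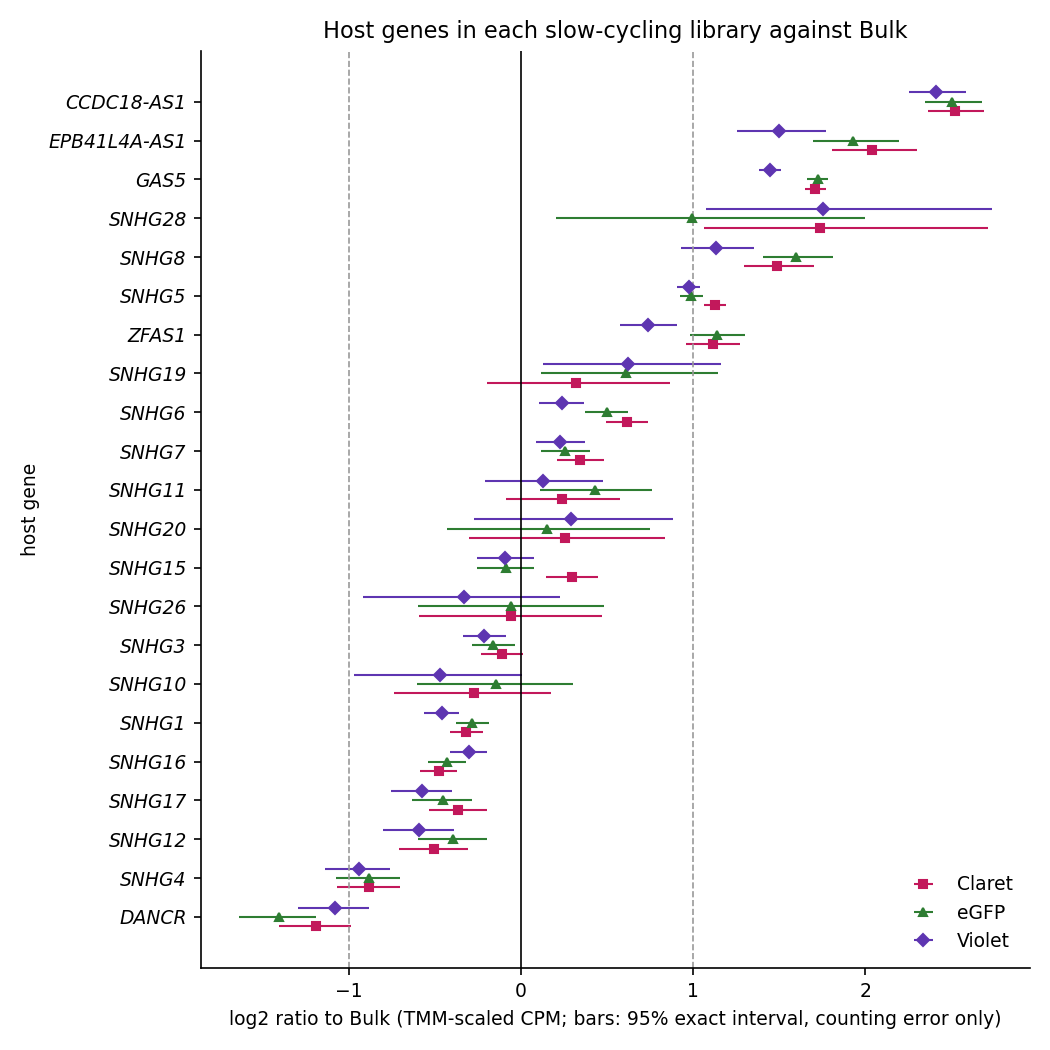
Log2 ratio of each of the 22 host genes in the Claret, eGFP and Violet libraries to the Bulk library (x axis, TMM-scaled CPM), with host genes on the y axis. Bars are 95% exact intervals for counting error in 1 library per group, and dashed lines mark 2-fold. CCDC18-AS1 lies above 2.4 in all 3 libraries, and DANCR lies below -1 in all 3.

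CCDC18-AS1, a long non-coding gene antisense to CCDC18, had the largest ratio of the host genes. It had 359 reads in Bulk against 2228, 2062 and 1915, or 22.8 CPM against 131, 129.7 and 122. The 3 slow-cycling libraries lay close together and far above Bulk, at 5.73-fold, 5.67-fold and 5.31-fold its level. The log2 ratios were 2.52 (95% exact Clopper-Pearson interval 2.36 to 2.69), 2.50 (2.35 to 2.68) and 2.41 (2.25 to 2.58). These intervals, like all below, cover counting error only, because reads without molecular identifiers are not independent molecules and variation between cultures was not measured. The gene spans chr1:93262186-93346025 on the minus strand, and no snoRNA row of the table lies inside it. Among the 1277 long non-coding genes of at least 1 CPM, its log2 ratio ranked 31, 40 and 41, so a number of other long non-coding genes had larger ratios.

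EPB41L4A-AS1, the host of the box H/ACA snoRNA SNORA13, had 170 reads in Bulk against 758, 659 and 483. All 3 slow-cycling libraries were above Bulk, with Violet the lowest of them. The log2 ratios were 2.04 (1.81 to 2.30), 1.93 (1.70 to 2.19) and 1.497 (1.25 to 1.77). The gene occupies chr5:112160526-112164276 on the plus strand.

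GAS5, at chr1:173863900-173868882 on the minus strand, had 2826 reads in Bulk against 9945, 9410 and 7695. Its level was 179 CPM in Bulk against 586, 592 and 489 CPM, so Claret and eGFP were nearly equal and Violet lay between them and Bulk. The ratios to Bulk were 3.26-fold, 3.30-fold and 2.72-fold, or 1.71 (1.65 to 1.77), 1.72 (1.66 to 1.78) and 1.45 (1.38 to 1.51) on the log2 scale. With this depth the intervals of GAS5 are narrow, but they do not replace replicate libraries.

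SNHG8, the host of the box H/ACA snoRNA SNORA24, at chr4:118278709-118279823, had 267 reads in Bulk against 810, 820 and 587. As for GAS5, Claret and eGFP were above Violet and Violet was above Bulk. The log2 ratios were 1.49 (1.29 to 1.70), 1.60 (1.41 to 1.81) and 1.13 (0.93 to 1.35), and the lower end of the Violet interval falls under 2-fold.

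SNHG5, ZFAS1 and SNHG28 were past 2-fold in some slow-cycling libraries only. SNHG5, the host of SNORD50B, had 2772 reads in Bulk against 6517, 5551 and 5440, with log2 ratios of 1.12 (1.06 to 1.19), 0.99 (0.92 to 1.06) and 0.97 (0.91 to 1.04). The eGFP and Violet values are within counting error of the 2-fold line, and both pass it when libraries are scaled by their summed counts alone. ZFAS1, the host of the SNORD12 snoRNAs and antisense to the start of ZNFX1, had 475 reads in Bulk against 1109, 1055 and 792. Its log2 ratios were 1.11 (0.96 to 1.27), 1.14 (0.98 to 1.30) and 0.74 (0.57 to 0.91), so Violet was again the lowest slow-cycling library. SNHG28 was weakly read, with 17 reads in Bulk against 66, 36 and 62. Its log2 ratios of 1.74 (1.06 to 2.71), 0.99 (0.20 to 1.99) and 1.76 (1.08 to 2.74) have wide intervals, and on the log2(FPKM + 1) scale none of them passes 2-fold. The symbol SNHG28 stands on a pair of rows of the table, and these values are of the row classed as protein coding (ENSG00000256029), while the other row (ENSG00000188004) lies wholly inside its exons and is listed at 0 in every library.

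DANCR, the host of SNORA26 and of the microRNA gene MIR4449, known for opposing differentiation of progenitor cells, was the only one of the 22 past 2-fold lower. It had 602 reads in Bulk against 283, 228 and 283. Every slow-cycling library was below Bulk, at 16.7, 14.3 and 18.0 CPM against 38.2. The log2 ratios were -1.19 (-1.41 to -0.99), -1.41 (-1.64 to -1.19) and -1.08 (-1.30 to -0.88), or 2.28-fold, 2.65-fold and 2.12-fold lower. DANCR lies at chr4:52712404-52720351 on the plus strand. SNHG4, the host of SNORA74A, came next, with 676 reads in Bulk against 394, 368 and 350. Its log2 ratios of -0.88, -0.89 and -0.94 did not pass 2-fold, although each interval reaches past it (lowest bounds -1.07, -1.08 and -1.14).

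The other 13 host genes stayed within 2-fold of Bulk in all 3 libraries. Those with the most reads in Bulk within this group were on the lower side. SNHG1, the host of a run of box C/D snoRNAs that includes SNORD22, had 1893 reads in Bulk against 1635, 1569 and 1372, with log2 ratios of -0.32, -0.28 and -0.46. SNHG16, which holds the SNORD1 snoRNAs, had 1609 reads in Bulk against 1243, 1204 and 1302 and log2 ratios of -0.48, -0.43 and -0.30. All 6 of these intervals exclude 0.

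Further members with values below Bulk in all 3 libraries included hosts of H/ACA snoRNAs. SNHG17, which holds SNORA71A to SNORA71D, had 647 reads in Bulk against 541, 475 and 433 (log2 -0.36, -0.46 and -0.58). SNHG12, the host of SNORA61, SNORA44 and SNORA16A and of SNORD99, had 485 against 367, 371 and 321 (log2 -0.51, -0.40 and -0.59). Intervals of both genes exclude 0 in every library. SNHG3, the host of SNORA73A and SNORA73B, had 1135 against 1133, 1024 and 977 and log2 ratios of -0.11 (-0.23 to 0.01), -0.16 and -0.21. SNHG10, which holds the Cajal body RNA SCARNA13, had 63 to 88 reads per library, and SNHG26, the host of SNORD93, had 48 to 63. Log2 ratios were -0.28, -0.15 and -0.47 for SNHG10 and -0.06, -0.06 and -0.33 for SNHG26. At such read numbers the intervals of both genes included 0 in every library.

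Above Bulk in all 3 libraries but within 2-fold were SNHG6, SNHG7, SNHG11, SNHG19 and SNHG20. SNHG6, the host of SNORD87, had 889 reads in Bulk against 1467, 1266 and 1046, with log2 ratios of 0.61 (0.49 to 0.74), 0.50 (0.37 to 0.62) and 0.24 (0.11 to 0.37). SNHG7, which holds SNORA17A and SNORA17B, had 736 against 1007, 887 and 861, with log2 ratios of 0.34, 0.26 and 0.23. SNHG11 (SNORA60 and SNORA71E), SNHG19 (SNORD60) and SNHG20 (SCARNA16) were read less, at 138 to 188, 54 to 84 and 48 to 62 reads per library. SNHG19 stood at 0.32 in Claret, 0.61 in eGFP and 0.62 in Violet. SNHG15, the host of SNORA9, had 611 reads in Bulk against 808, 579 and 573, so that Claret alone was above Bulk (log2 0.29, interval 0.14 to 0.45, against -0.09 in both other libraries).

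Levels between genes were compared by the deposited FPKM, which divides reads by gene length. GAS5 stood at 50.1 FPKM in Bulk and at 161, 162 and 132 FPKM in the slow-cycling libraries. It ranked 5 among the 14886 long non-coding genes of the table in Bulk and 1 in each slow-cycling library. SNHG5 had the highest level of the 22 in Bulk, 63.6 FPKM (rank 2), and 137, 124 and 121 FPKM in the slow-cycling libraries. CCDC18-AS1 moved from 4.83 FPKM (rank 132) to 27.4, 27.0 and 24.9 FPKM (ranks 14, 11 and 15). EPB41L4A-AS1 went from rank 229 to ranks 42, 47 and 69, and SNHG8 from rank 18 to ranks 7, 6 and 7. In the other direction DANCR went from 16.9 FPKM (rank 21) to 7.30, 6.24 and 7.71 FPKM (ranks 100, 120 and 86), and SNHG4 from rank 43 to ranks 152, 157 and 174. In Bulk the order by FPKM began SNHG5, GAS5, SNHG6, SNHG1, SNHG16; in Claret it began GAS5, SNHG5, SNHG6, SNHG8, ZFAS1.

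**Figure D2:**
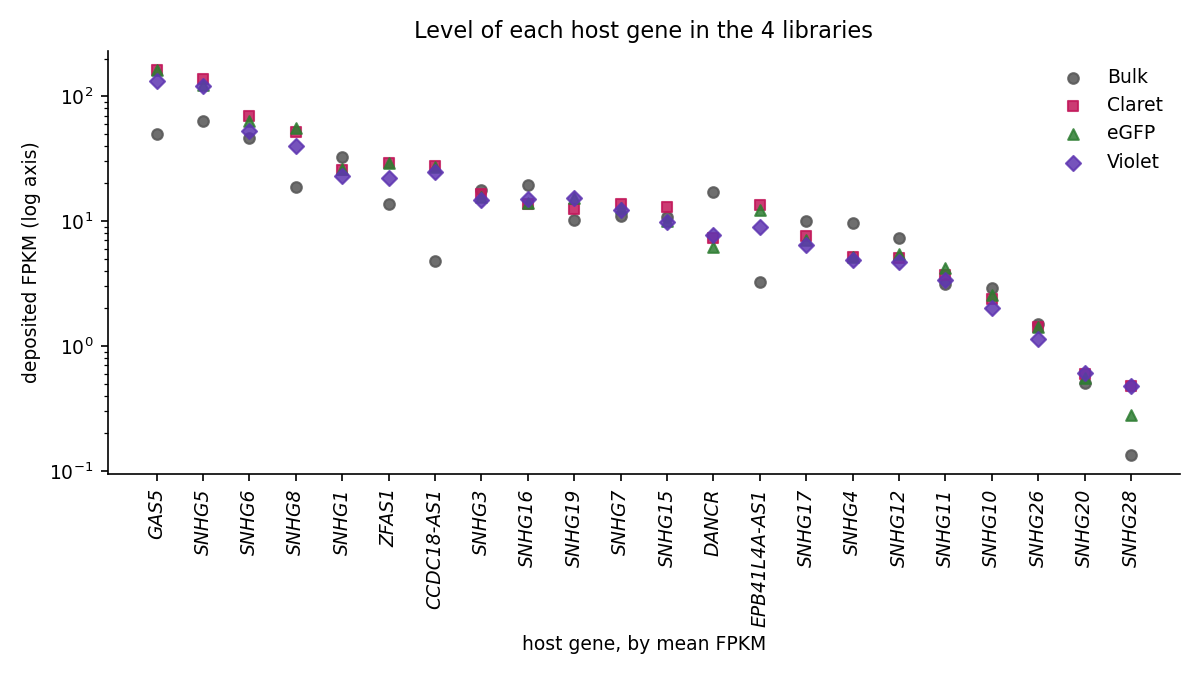
Deposited FPKM of each of the 22 host genes (y axis, log scale) in the 4 libraries, ordered along the x axis by mean FPKM. Each point is 1 library. GAS5 lies at 50.1 in Bulk and at 132 to 162 in the slow-cycling libraries, while DANCR lies at 16.9 in Bulk and at 6.24 to 7.71 in the others.

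Summed over the 31 host genes, reads came to 1054 CPM in Bulk against 1815, 1766 and 1585 CPM, a ratio of 1.72-fold, 1.67-fold and 1.504-fold. GAS5 alone made up 17.0% of the host genes' reads in Bulk and 32.3%, 33.5% and 30.8% in the slow-cycling libraries. Without GAS5 and SNHG5 the sums were 699, 846, 824 and 751 CPM, or 1.21-fold, 1.18-fold and 1.07-fold. Most of the difference in the sum thus lies in GAS5 and SNHG5.

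Between the slow-cycling libraries, most of the 22 host genes were lower in Violet than in Claret and eGFP, by less than 2-fold. None of the 22 passed 2-fold between Claret and eGFP, Claret and Violet, or eGFP and Violet, where only 1.15%, 1.06% and 1.29% of all genes did, so this count shows nothing particular to them. The median log2 ratio was 0.01 for Claret to eGFP, 0.13 for Claret to Violet and 0.11 for eGFP to Violet. Violet was the lowest of the 3 slow-cycling libraries for 17 of the 22 host genes (77.3%), against 35% of all genes. Over the other 1256 long non-coding genes the medians went the other way, at -0.07 for Claret to Violet and -0.08 for eGFP to Violet. In Claret against Violet, 10 host genes had an interval wholly above 0 and 1 wholly below, and 14.3% and 13.7% of all genes did. In eGFP against Violet, 7 had an interval wholly above 0 and 3 wholly below, against 14.2% and 14% of all genes, and in Claret against eGFP 4 and 0 did, against 12.7% and 11.8%. The gaps were widest for EPB41L4A-AS1 (0.54, 0.37 to 0.71, Claret to Violet) and SNHG8 (0.47, 0.31 to 0.62, eGFP to Violet) among genes with over 100 reads in each library. For GAS5 the log2 ratio was 0.26 (0.22 to 0.30) from Violet to Claret and 0.28 (0.23 to 0.32) from Violet to eGFP, and -0.02 between Claret and eGFP. SNHG16 went the other way, at -0.18 (-0.29 to -0.06) for Claret to Violet and -0.13 (-0.24 to -0.01) for eGFP to Violet, and so did DANCR (-0.32, -0.58 to -0.07) and SNHG28 (-0.77, -1.43 to -0.18) for eGFP to Violet. The 28 ribosomal-protein genes that host snoRNAs were likewise all above Violet in both Claret and eGFP, with medians of 0.18 and 0.16. So were the 8 genes of core proteins that bind snoRNAs (0.16 and 0.13). Of 16 genes with TOP messenger RNAs outside the ribosomal proteins, 15 were above Violet in each. Of 16 genes of snoRNA assembly and processing, 14 and 13 were, and of 15 nonsense-mediated decay factors, 6 and 8. Of all 14585 genes, 7347 in Claret and 7272 in eGFP were above Violet. Whether the lower Violet values belong to the sort or to this 1 library cannot be told apart.

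**Figure D3:**
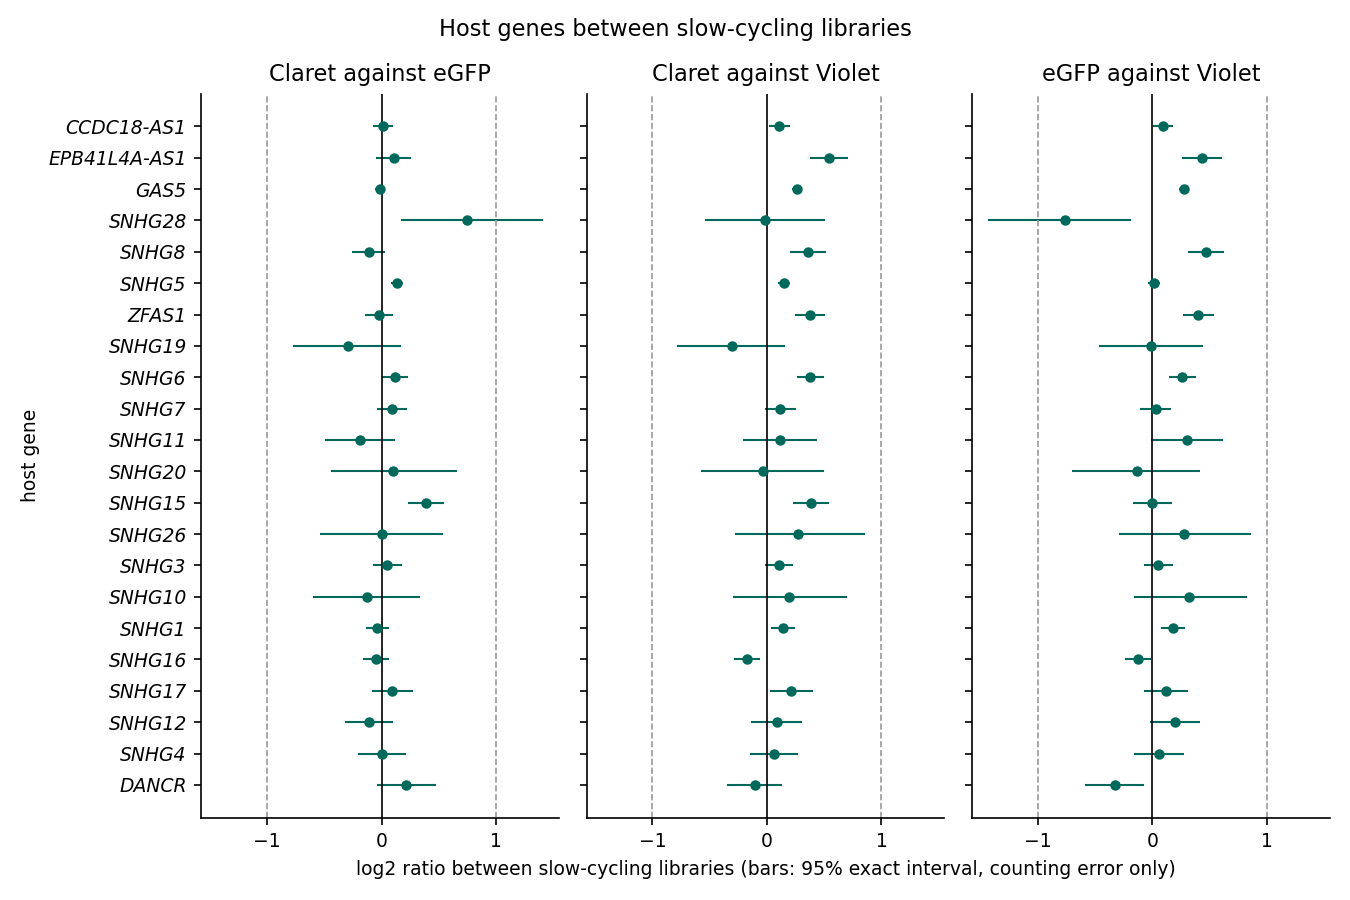
Log2 ratios of the 22 host genes between the slow-cycling libraries (x axis), 1 panel for each pair, with host genes on the y axis and 95% exact intervals for counting error as bars. Dashed lines mark 2-fold, and no point lies past them. In both panels against Violet, 17 of the 22 points lie above 0.

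The small RNAs inside the host genes were almost unread. By coordinates and strand, 145 snoRNA, small Cajal body RNA or microRNA rows lay inside 28 of the 31 host genes, 84 of them in SNHG14 alone, and no such row was found inside GAS5, CCDC18-AS1 or SNHG27. Only 18 of the 145 had any read and 12 had at least 10 reads over all 4 libraries. SNORA73B inside SNHG3 had 47 reads in Bulk against 32, 39 and 34, and SNORA71C inside SNHG17 had 36 against 26, 22 and 22. SNORD104 had 46 reads in Bulk against 63, 73 and 50, more than its own host SNHG25 (4 against 10, 6 and 12). The protocols name no step that keeps short RNAs, and the level of mature snoRNAs was not measured by these rows. By the kind of snoRNA hosted, the 7 hosts of box C/D names only had mean log2 ratios (over the 3 slow-cycling libraries) from -0.40 to 1.03 with a median of 0.45, and the 9 hosts of box H/ACA names only ranged from -1.23 to 1.82 with a median of 0.04. The first range lies inside the second. Both leave out SNHG12, with names of both kinds, and the 5 host genes without a named snoRNA row, GAS5 (mean 1.62) among them. A row missing here does not show that a gene hosts no snoRNA.

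Some host genes share exon bases with neighbours, and the sources used here do not state whether counting used strand, so reads from both strands may be mixed. Among the 22, the shared part is largest in SNHG28 (55.5% of exon bases in another gene), and EPB41L4A-AS1 shares 49.6% of its exon bases with EPB41L4A on the opposite strand. EPB41L4A had 126 reads in Bulk against 185, 184 and 189 (log2 0.44, 0.53 and 0.58), a smaller ratio and fewer reads than EPB41L4A-AS1. ZFAS1 shares 11.1% with ZNFX1, which had 1903 reads in Bulk against 1941, 1970 and 1876. CCDC18-AS1 shares 2.88% with DR1 and 1.504% with CCDC18, and both of these were below Bulk (log2 -0.67, -0.58 and -0.65 for DR1, and -0.58, -0.96 and -0.36 for CCDC18). GAS5 shares 1.16% with other genes, and SNHG5, SNHG8 and SNHG1 share 0%. All these shares leave out the snoRNA, small Cajal body RNA and microRNA rows. On the lower side, DANCR shares 11.9% with other genes, leaving out the same rows. SNHG3 shares 5.92% with RCC1 on the same strand, and RCC1 had log2 ratios of -1.05, -0.88 and -1.22. Repeated sequence was limited: at most 10.8% of the 31-base words of any of the 22 host genes occurred in transcripts of a gene elsewhere (SNHG20), and 2.38% in GAS5 and 0.92% in DANCR.

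The genes around the host RNAs were described by lists. Among protein-coding genes with a snoRNA inside them, the 28 ribosomal-protein genes had medians of 0.43, 0.42 and 0.29, with 24 of 28 above Bulk in all 3 and 1, 1 and 0 past 2-fold. RPL3 was the highest of them (1.01, 1.01 and 0.73) and RPL17 the lowest (-0.05, 0.00 and -0.12). The other 192 protein-coding hosts had medians of -0.26, -0.28 and -0.26. Of these, 9, 9 and 11 were past 2-fold higher (4.69%, 4.69% and 5.73%, against 11.3%, 12% and 11.7% of all genes). Past 2-fold lower were 21, 20 and 23 (10.9%, 10.4% and 12.0%, against 6.72%, 7.64% and 6.92%). PCNA, the replication clamp, was at -1.92, -2.09 and -2.03 and POLA1, a catalytic subunit of DNA polymerase alpha, at -1.86, -1.95 and -2.11. At the top were N4BP2L1 (1.79, 2.06 and 1.91) and WIPF3, which had only 4 reads in Bulk. The host genes described here thus spread more widely than the ribosomal-protein hosts: the standard deviation of log2 ratios over genes in Claret was 0.99 against 0.25, with 0.86 over all genes and 0.98 over the other long non-coding genes.

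Most genes for proteins that bind and assemble snoRNAs had RNA levels below Bulk. For the lists that follow, 42.8% of all genes were below Bulk in all 3 libraries, and 6.72%, 7.64% and 6.92% were past 2-fold lower. All 8 genes of snoRNP core proteins had values below Bulk in all 3 libraries, with medians of -0.57, -0.54 and -0.79. Of these, 2 were past 2-fold lower in every library: NOP56 (-1.07, -1.10 and -1.22) and NOP58 (-1.001, -1.10 and -1.18), both of the box C/D particle. SNU13 (-0.09, -0.13 and -0.26) and NOP10 (-0.43, -0.43 and -0.57) were nearest to Bulk. Of 16 genes of snoRNP assembly and snoRNA processing, 15 were below Bulk in all 3 libraries (medians -0.61, -0.55 and -0.75) and 2 past 2-fold in each, the nucleolar proteins TCOF1 (-1.40, -1.32 and -1.44) and NCL (-1.22, -1.36 and -1.39). ZNHIT3 (0.23, 0.04 and 0.11) was the exception, and ZNHIT6 stood at -0.26, -0.30 and -0.26.

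Of 19 genes of RNA polymerase I and early ribosome assembly, 16 were below Bulk in all 3 libraries (medians -0.57, -0.54 and -0.56), and 2, 3 and 2 were past 2-fold lower. UTP4 (-1.07, -1.15 and -1.24) and BOP1 (-0.97, -1.20 and -1.24) had the lowest means over the 3 libraries. NOP2, past 2-fold lower in Claret alone (-1.98, -4.12 to -0.95), was weakly read, with 24 reads in Bulk against 5, 22 and 22. NOP53, a ribosome assembly protein, was past 2-fold higher in each (1.44, 1.48 and 1.36), and POLR1D stood at 0.62, 0.65 and 0.61.

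Factors of nonsense-mediated decay, the pathway that degrades several host RNAs, had values below Bulk in all 3 libraries for 15 of 15 genes (medians -0.40, -0.44 and -0.49). UPF3B alone was past 2-fold lower (-1.24, -1.30 and -1.50), followed by EIF4A3 (-0.77, -0.87 and -0.81), while CASC3 (-0.21, -0.12 and -0.18) and UPF3A (-0.26, -0.19 and -0.15) were nearest to Bulk. Of 17 genes with TOP messenger RNAs outside the ribosomal proteins, 16 reached 1 CPM and EEF1G was listed at 0 in all 4 libraries. Whether that 0 reflects the level of EEF1G or the way reads were counted was not tested. None of the 16 passed 2-fold, 12 were above Bulk and 4 below in all 3 libraries, and the medians were 0.48, 0.45 and 0.36. RACK1, a ribosome-bound scaffold protein, stood at 0.94, 0.87 and 0.72, and the elongation factor EEF2 at 0.80, 0.84 and 0.72, with NPM1 (-0.34, -0.44 and -0.53) and HNRNPA1 (-0.24, -0.35 and -0.39) at the other end. In the same libraries the proliferation genes MKI67 and TOP2A had log2 ratios of -2.87 to -3.31 and -2.09 to -2.53, and the part of the cell cycle in these medians was not tested.

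**Figure D4:**
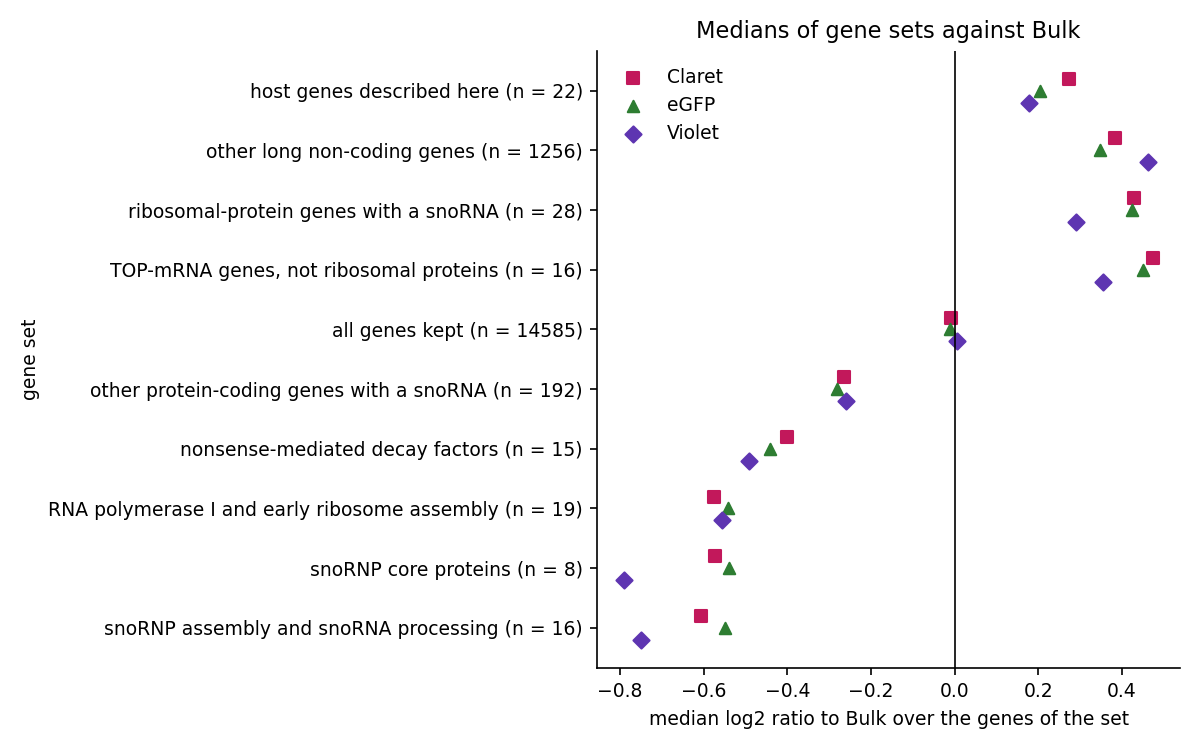
Median log2 ratio to Bulk (x axis) over the genes of each set named on the y axis, 1 point for each of the 3 slow-cycling libraries, with the number of genes in brackets. The host genes' medians of 0.18 to 0.27 lie below those of other long non-coding genes (0.35 to 0.46), and the medians of snoRNP core proteins lie at -0.54 to -0.79.

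Transcript starts were compared with the ratios. RefSeq starts were matched for 20 of the 22 host genes, not for SNHG6 and SNHG15. Of the 20, 5 began with a TOP tract (SNHG5, ZFAS1, SNHG19, SNHG12 and SNHG4), against 4.07% of 35116 promoters in the table. The 5 are genes with a tract at any of their RefSeq starts, while the 4.07% is over single promoters, so the units differ. The motif was read on the gene's strand at the start base only. In GENCODE 29, where transcripts starting within 1000 bases of the gene's 5′ end were counted, a rule chosen after the values were seen, 12 of the 22 (54.5%) had at least 1 such transcript. The share was 8.40% of all genes of at least 1 CPM, 4.06% of the other long non-coding genes and 75% of 80 ribosomal-protein genes. Genes with more annotated transcripts have more chances to hold one: over single transcripts the shares were 15.6% for the host genes and 2.72% for all genes. The 12 had a median mean log2 ratio of 0.36, from -0.90 to 1.62, and the other 10 had 0.13, from -1.23 to 2.48. SNHG5 and ZFAS1, which were above Bulk, have a tract at their RefSeq start, and so do SNHG12 and SNHG4, which were below Bulk and have the longest tracts of those printed. GAS5 and SNHG8 have none at their RefSeq start: 6 of 14 GENCODE transcripts of GAS5 and 1 of 5 of SNHG8 near the gene start have one, and the printed transcripts were picked for it. CCDC18-AS1 and EPB41L4A-AS1, with the largest mean ratios over the 3 libraries, have none at their RefSeq starts or among GENCODE transcripts near the gene start. DANCR has none there either.

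A few genes named as hosts since this annotation appear in the table under older symbols and were looked up after the values were seen. SNHG29, listed as LRRC75A-AS1, had 3817 reads in Bulk against 7840, 7704 and 6284 (log2 0.93, 1.00 and 0.72). SNHG32, listed as C6orf48, had 1152 against 2545, 2383 and 1957 (1.03, 1.03 and 0.76). Both show Violet lowest among the slow-cycling libraries, as GAS5, SNHG8 and ZFAS1 do. SNHG30, listed as LINC02001, had 54 to 78 reads and values below Bulk in each library.

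The 9 host genes under 1 CPM were SNHG9, SNHG14, SNHG18, SNHG21, SNHG22, SNHG25, SNHG27, MIR17HG and the other row of SNHG28, with at most 16 reads in any library. SNHG18 and that row of SNHG28 were listed at 0 throughout. For SNHG18, 0 reads allow a level of up to 0.177 to 0.191 CPM. For that row of SNHG28 the 0 sets no limit, because its exons lie wholly inside those of the other row. MIR17HG, the host of the miR-17 to miR-92a cluster, had 14 reads in Bulk against 11, 9 and 13. SNHG14, which holds the SNORD115 and SNORD116 clusters, had 1 to 4 reads. At such read numbers the intervals are wide: SNHG27, with 8 reads in Bulk against 10, 4 and 14, had a log2 ratio of -1.43 (-3.88 to -0.15) for eGFP to Violet.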

How the data were processed

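RNA of 4 sorted MDA-MB-231 populations was sequenced, 1 library each. The deposited table gives read counts per gene, not normalized, per the file headers. The authors also deposited FPKM values, which the numbers show to be the same counts divided by gene length and a library total. HISAT2 2.0.5 and featureCounts 1.5.0-p3 are named, without roles, in the submitters' processing notes. Strand use and treatment of multi-mapping reads are not given in the sources used here. Gene coordinates match GENCODE 29 (GRCh38) for 58724 genes.

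Library sizes were scaled by TMM (edgeR 4.0.16, R 4.3.3), genes with a mean of at least 1 CPM were kept, and log2 ratios used a prior count of 2. With 1 library per group no test was possible, so a gene was called when past 2-fold, and exact 95% intervals of the read ratio were computed in scipy 1.17.1. The ratio and interval code was tested on simulated data. Alternatives included DESeq2 1.42.0 size factors. Members and lists were chosen with earlier results of these data known. Named genes are all members kept, the 2 highest and 2 lowest of each list by mean log2 ratio, MKI67 and TOP2A. Renamed hosts, overlapping neighbours, small RNAs inside hosts and NOP2 were added after seeing values.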

Additional observations from a re-analysis of the deposited data

How the results depend on the processing

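The call of the 4 genes past 2-fold higher in all 3 libraries, and that of DANCR, held under DESeq2 size factors, summed counts, a prior count of 0.5, log2(FPKM + 1) and a GC correction added after seeing the data. Summed counts moved SNHG5 (eGFP and Violet) and SNHG28 (eGFP) past 2-fold, the GC correction moved SNHG5 (eGFP and Violet), the prior count of 0.5 moved SNHG28 (eGFP), and log2(FPKM + 1) lost SNHG28 in Claret and Violet. No paired analysis was possible because each group holds 1 library.

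With groups from the treatment field, which makes the library titled Violet the control, members past 2-fold higher were 1, 0 and 0 in Claret, eGFP and Violet, and lower 5, 0 and 0. The Claret median became -0.18, members past 2-fold between slow-cycling groups became 8 (Claret to eGFP) and 6 (Claret to Violet), and those medians -0.27 and -0.20. The reversed log2 ratios under that field were CCDC18-AS1 -2.41, EPB41L4A-AS1 -1.50, GAS5 -1.45, SNHG28 -1.76, SNHG8 -1.13, SNHG5 -0.97, ZFAS1 -0.74 and DANCR 1.08, all in Claret, and SNHG28 -0.77 in Violet. Here the alternative's own construction swaps the libraries.

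With SNHG names only (17 genes), 3, 1 and 2 were higher and 0, 0 and 0 lower, with medians of -0.059 (eGFP) and -0.091 (Violet). Without members that overlap the span of a protein-coding gene, 9 were left. Of these, 2, 1 and 1 were higher, against 11.3%, 12% and 11.7% of all genes, with medians of -0.059 (eGFP) and -0.091 (Violet). The sign of the median in these libraries thus rests on which genes are counted. With no filter on low counts (29 genes), 2 were lower in Claret and 2 in eGFP, the eGFP median was -0.0064, and 2 passed 2-fold between eGFP and Violet. At 1.5-fold, 8 were higher in eGFP and 8 in Violet, 2, 2 and 3 were lower, and 1 passed between Claret and eGFP and 1 between eGFP and Violet. The shares of all genes at 1.5-fold and without the filter were not computed, so these counts show nothing particular to the host genes. Depth limits SNHG10, SNHG19, SNHG20, SNHG26 and SNHG28, with under 100 reads in each library.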
